A study of Mus musculus with 3 samples.

Results

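The genes described are the splicing factors of the SR, hnRNP and branch-point groups in mouse bone marrow. They were taken by symbol: every entry named Srsf, Sf3a or Sf3b with a number, every entry starting with Hnrnp or U2af, and the 6 genes Zrsr1, Zrsr2, Sf1, Prpf8, Tra2a and Tra2b. The rule found 49 genes among 23282 entries of the deposited files: 11 SR genes, 20 hnRNP genes, 9 subunits of SF3A and SF3B, 5 genes of the U2AF and ZRSR group, and 4 others (Sf1, Prpf8, Tra2a and Tra2b). The rule used symbols and not levels, although it was set with earlier results of these data known. Marrow came from wild type male C57BL/6 mice aged 6 weeks that received sterile water by oral gavage over 28 days. Cells were harvested on day 29 and the red blood cells lysed. The series compares this vehicle with Asari Radix et Rhizoma, a herbal root preparation. The herb arm was not analysed here and no treatments are compared: the 3 vehicle libraries (replicates 1, 2 and 3) form 1 group. Whether each library is a different mouse is not stated in the labels, and the spread between libraries may therefore be technical.

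Splicing removes introns in steps that begin with the branch point and the end of the intron. SF1 binds the branch point, the U2AF heterodimer binds the pyrimidine tract and the AG dinucleotide behind it, and the U2 small nuclear ribonucleoprotein, with its SF3A and SF3B subcomplexes, then takes the place of SF1. SR proteins bind exons and mostly favour their inclusion, while hnRNP proteins coat nascent RNA and often favour skipping. In the marrow these genes are known from myelodysplastic syndromes, in which SF3B1, SRSF2, U2AF1 and ZRSR2 are recurrently mutated. The mice here were wild type, and the values describe transcript levels in vehicle-treated marrow only.

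Reads assigned to genes numbered 9168435, 8104828 and 9137125 in replicates 1, 2 and 3. The ribosomal RNA entry Rn45s held 18.8%, 20.3% and 18.6% of them, and these reads count in the library sizes and in shares of all reads. Levels are reads per 1000000 of a library size scaled by the trimmed mean of M-values (TMM-scaled CPM, written CPM below). The libraries were made by priming at the poly(A) tail, which is meant to give about 1 fragment per transcript. Whether the reads keep to that was not tested. Levels were compared between genes with no length correction on this ground. Per kb of annotated exon the order of many genes differs, as given for the leading genes of each group. The scaling matters because, on plain library totals, genes of replicate 1 lay a median of 0.15 on the log2 scale above the mean of the other libraries, against 0.01 after scaling. Marrow markers were present in all libraries. The 8 erythroid markers, all with reads, summed to between 70496 CPM in replicate 1 and 117917 CPM in replicate 3, and the 10 neutrophil markers to between 70477 CPM in replicate 2 and 95955 CPM in replicate 3. Proliferation markers (4 of 4 with reads) held 2208 to 2539 CPM and 3 T cell markers only 7.46 to 17.3 CPM. In such bulk RNA, fewer cells of a type and less RNA per cell cannot be told apart.

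The 49 genes together held 6720, 6365 and 6192 CPM in replicates 1, 2 and 3, a mean of 6426 ± 269 CPM (SD, n = 3), or 0.718%, 0.624% and 0.591% of all reads. The hnRNP genes made up 48.6% of this sum with 3124 ± 138 CPM, SR genes 23.2% with 1489 ± 45.3 CPM, SF3A and SF3B subunits 15.0% with 964 ± 22.9 CPM, the U2AF and ZRSR group 4.89% with 314 ± 26.5 CPM, and the other 4 genes 8.32% with 536 ± 65.2 CPM. Single genes ranged from 477 CPM for Hnrnpk to 0.153 CPM for Srsf12. Of the 49, 23 had a mean of at least 100 CPM, 17 were among the 1000 most abundant entries, and 48 had reads in every library. Per kb of exon the 4 highest were Hnrnpab, Hnrnpa0, Srsf2 and Hnrnpk, in that order. The order of neighbouring genes is loose: of the 48 neighbouring pairs in the order of means, 10 had library ranges that did not overlap.

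**Figure D1:**
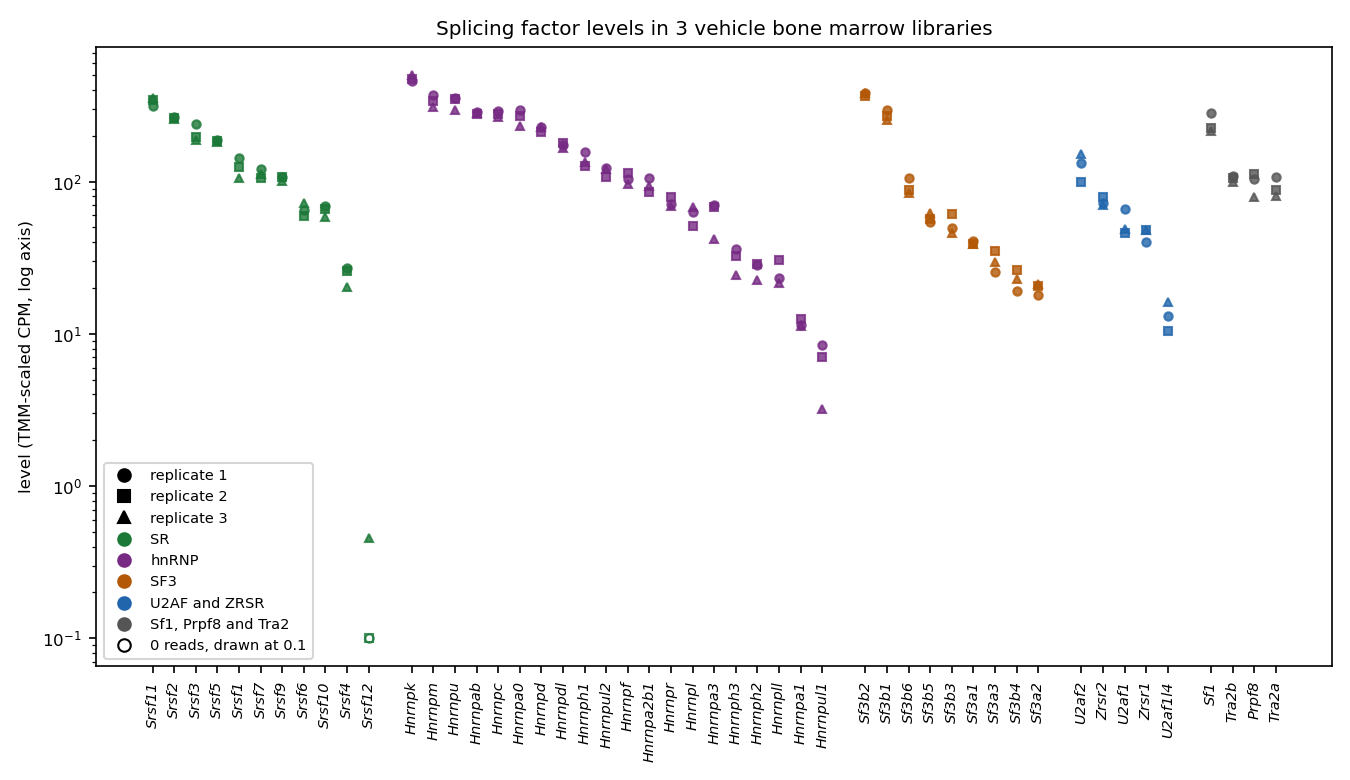
Level of each of the 49 genes in TMM-scaled CPM (log axis) in the 3 vehicle libraries, 1 point per library, ordered by mean level within each group; open points drawn at 0.1 mark 0 reads. Hnrnpk lies highest at 460 to 500.2 CPM, and Srsf12 has reads in replicate 3 only.

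The 4 genes of the recurrent myelodysplasia mutations fell into a high and a low pair in CPM. Sf3b1, which encodes the SF3B subunit that holds the branch-point helix, had 294, 270.2 and 254 CPM in replicates 1, 2 and 3, a mean of 273 ± 19.9 CPM (SD, n = 3) that ranked 339 among all entries. Srsf2, which encodes an SR protein with 1 RNA-recognition motif and an arginine-serine domain, had 266, 262 and 257 CPM, or 262 ± 4.30 CPM. Their libraries overlapped, and Sf3b1 stood at 0.988 to 1.10 times Srsf2. Zrsr2, the partner that recognises the end of U12-type introns, had 72.3, 79.2 and 69.9 CPM, or 73.8 ± 4.84 CPM. U2af1, the small U2AF subunit that reads the AG at the intron end, had 65.7, 46.3 and 49.1 CPM, or 53.7 ± 10.5 CPM, and was the lowest of the 4 in each library. Srsf2 was 3.30 to 3.68 times Zrsr2, and Zrsr2 was 1.10 to 1.71 times U2af1, with no overlap between libraries in either pair. Per kb of exon the order changed to Srsf2, Sf3b1, U2af1 and Zrsr2, at 88.5, 24.0, 20.7 and 10.3 CPM per kb. On that scale Srsf2 stood apart and Sf3b1 lay close to U2af1, so the split into 2 pairs holds without length correction only.

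Upstream sequences of these 4 genes are shown so that the genes of the recurrent mutations can be read side by side. They were taken from the RefSeq promoter table (GRCm38.p6), 5′ to 3′ on the gene's strand, within 250 bases before the transcript start and without any annotated exon. Capitals mark matches on either strand to the searched motifs. These were the CCAAT box as named, the TATA box with the letters TATAAA, the GC box with the letters GGGCGG, the ETS core with the letters CCGGAAG, the NRF1 motif, the CRE with the letters TGACGTCA, and the YY1 motif with the letters AAGATGGC. GC box matches may overlap each other and other motifs.
Sf3b1, chr1:55027482-55027728, minus strand: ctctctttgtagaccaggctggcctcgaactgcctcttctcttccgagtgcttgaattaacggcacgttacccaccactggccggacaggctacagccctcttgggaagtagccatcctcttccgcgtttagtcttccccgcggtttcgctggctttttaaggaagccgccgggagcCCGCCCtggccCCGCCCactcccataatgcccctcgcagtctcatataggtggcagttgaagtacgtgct
Srsf2, chr11:116853095-116853294, minus strand: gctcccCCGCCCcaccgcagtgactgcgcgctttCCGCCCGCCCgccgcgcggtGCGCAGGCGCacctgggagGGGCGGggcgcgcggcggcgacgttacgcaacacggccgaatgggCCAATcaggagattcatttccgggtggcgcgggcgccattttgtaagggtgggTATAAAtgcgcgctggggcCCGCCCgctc
U2af1, chr17:31658893-31659014, minus strand: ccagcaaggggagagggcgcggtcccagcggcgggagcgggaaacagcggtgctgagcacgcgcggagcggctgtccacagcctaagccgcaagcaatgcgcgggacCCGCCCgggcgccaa
Zrsr2, chrX:163958667-163958916, minus strand: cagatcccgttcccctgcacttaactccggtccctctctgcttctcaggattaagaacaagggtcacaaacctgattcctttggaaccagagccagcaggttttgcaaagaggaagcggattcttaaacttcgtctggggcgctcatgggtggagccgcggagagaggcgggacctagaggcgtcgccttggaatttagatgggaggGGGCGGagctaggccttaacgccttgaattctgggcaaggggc

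Of the 4 printed stretches, the one of Srsf2 held CCAAT, TATA box and NRF1 matches, and its first printed base borders an exon of the neighbouring gene Mfsd11. U2af1 had CCAAT and NRF1 matches elsewhere in its window, within the annotated exon that is not printed. GC boxes stood in all 4. CpG dinucleotides numbered 24, 39, 40 and 18 in the 300-base windows (250 bases before and 50 after the start) of Sf3b1, Srsf2, U2af1 and Zrsr2, against a median of 21 over the promoters of 8965 genes with at least 30 reads. Of the 49 genes, 44 matched the table. In their windows the GC box was found in 33 (75%, against 63.8% of the 8965 promoters and 35.9% of all 27025), CCAAT in 22 (50%, against 39.2% and 37.9%), the ETS core in 12 (27.3%, against 19.0% and 9.12%), the NRF1 motif in 5 (11.4%, against 10.9% and 4.78%) and the TATA box in 5 (11.4%, against 7.08% and 14.2%). The CRE was in 1 (2.27%, against 3.32% and 1.88%) and the YY1 motif in 2 (4.55%, against 5.04% and 2.88%). The genes with the TATA box letters were Hnrnpab, Hnrnpm, Sf3b3, Srsf2 and Srsf3. These matches are descriptions of letters, and no binding was measured.

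Spread beyond counting noise was tested in genes with 30 reads or more in total. Each library was set against the others by a two-sided binomial test (exact), with Benjamini-Hochberg adjustment over 11833 genes. A gene is said to differ where the adjusted p is under 0.05. Runs without a given library compare the remaining libraries only. They cannot test the value of the library left out. Of the 48 splicing genes tested, 35 differed (72.9%), against 51.8% of all genes tested. The test calls more genes at higher depth. Among genes with at least 300 reads 34 of 47 splicing genes differed (72.3%), against 60% of all such genes, and among genes with at least 1000 reads 27 of 38 splicing genes differed (71.1%), against 69.1% of all such genes. A difference of at least 1.5 times between the highest and the lowest library was seen in 4 of the 48 as well (Hnrnpul1, Hnrnpa3, U2af1l4 and U2af2), against 25.4% of all genes tested. With at least 300 reads this was 3 of 47, against 16.5%, and with at least 1000 reads 2 of 38, against 7.31%. The median coefficient of variation (CV) of the 48 genes was 10.002% with a median highest-to-lowest ratio of 1.21, against 16.2% and 1.37 over all genes tested. With at least 300 reads these CVs were 9.89% over 47 splicing genes and 12.1% over 7128 genes.

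**Figure D2:**
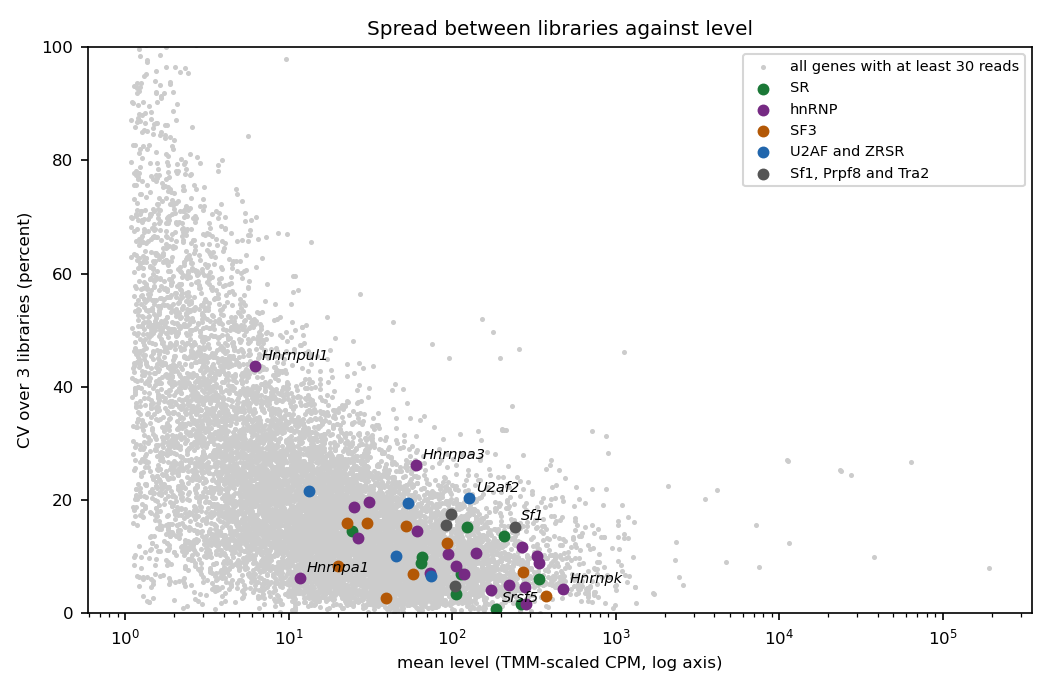
CV over the 3 libraries (percent) against mean level (TMM-scaled CPM, log axis) for all genes with at least 30 reads in grey and the 48 splicing genes in colour; 27 genes with a CV above 100% lie outside the axis. Hnrnpul1 has the largest CV of the splicing genes at 43.6% and Srsf5 the smallest at 0.828%.

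Among the factors that first mark the branch point, Sf1 was the most abundant. It had 283, 224 and 215 CPM in replicates 1, 2 and 3, a mean of 241 ± 36.8 CPM (SD, n = 3), and was higher in replicate 1 than in the others (exact binomial test, adjusted p = 2.16e-21). U2af2, the large U2AF subunit that binds the pyrimidine tract, had 132, 99.6 and 151 CPM, or 128 ± 25.9 CPM, and was lowest in replicate 2 (adjusted p = 1.70e-16, exact binomial test, ratio 1.51). U2af2 also differed without each library in turn, where the run without replicate 2 compares the remaining libraries only. U2af1, its partner in the heterodimer, was instead highest in replicate 1 (adjusted p = 9.01e-08, exact binomial test). The large subunit was therefore 2.01, 2.15 and 3.07 times the small one in replicates 1, 2 and 3. Without replicate 1, neither Sf1 nor U2af1 passed (exact binomial test, adjusted p = 0.387 and 0.567).

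The relatives of U2af1 were lower. U2af1l4, which encodes a U2AF1-like protein, had 13.2, 10.4 and 16.2 CPM, so that U2af1 stood at 3.04 to 4.98 times its level. U2af1l4 was highest in replicate 3 (adjusted p = 0.0392, exact binomial test). It did not differ without replicate 2 or replicate 3 (exact binomial test, adjusted p = 0.201 and 0.194), nor with library sizes that leave out the 20 most abundant genes (0.0505). Its exons overlap those of Psenen on the other strand, which held 564 reads against 353 for U2af1l4. Zrsr1, a retrogene relative of Zrsr2 that overlaps Commd1, had 40.2, 48.3 and 48.1 CPM and was lowest in replicate 1 (adjusted p = 0.0225, exact binomial test). It differed neither on library totals (exact binomial test, adjusted p = 0.670) nor without replicate 1 (0.998). Zrsr2 stood at 1.45 to 1.80 times Zrsr1 and did not pass the test (adjusted p = 0.133, exact binomial test). On library totals Zrsr2 did pass it (exact binomial test, adjusted p = 0.0149). Summed over the 5 genes, the U2AF and ZRSR group had 324, 284 and 334 CPM. Its highest library was replicate 3 here and replicate 1 on library totals.

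The 6 subunits of SF3B taken by the symbol rule, which sit together in a complex, covered a wide range of transcript levels. A subunit with another kind of symbol would not be among them. Sf3b2, whose protein contacts the RNA near the branch point, was the highest of all SF3 genes at 382, 363 and 384 CPM, or 376 ± 11.3 CPM (SD, n = 3). Sf3b1 followed at 273 CPM and Sf3b6, encoding the small p14 subunit at the branch adenosine, at 106, 88.4 and 84.5 CPM. Sf3b5 had 53.9, 56.7 and 61.9 CPM and Sf3b3, a large scaffold protein, 49.3, 61.1 and 45.7 CPM. Exons of Sf3b3 overlap those of Snord111 and Cog4, which held 540 reads together against 1368. Sf3b4, an RNA-binding subunit, was the lowest with 19.0, 26.3 and 23.0 CPM. The range from Sf3b4 to Sf3b2 was 16.5-fold in the means and 13.8 to 20.1-fold within single libraries. Per kb of exon the lowest subunit was Sf3b3 and not Sf3b4, Sf3b6 stood above Sf3b1, and the range from Sf3b3 to Sf3b2 was 11.6-fold.

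SF3A transcripts were low and closer together. Sf3a1 had 40.7, 39.0 and 38.6 CPM, Sf3a3 had 25.6, 35.2 and 29.7 CPM, and Sf3a2 had 18.0, 20.6 and 21.1 CPM. Sf3a1 and Sf3a2 thus differed 1.98-fold, while per kb of exon Sf3a3 was highest and Sf3a1 lowest. Exons of Sf3a2 overlap those of Plekhj1 on the other strand, which held 327 reads against 524. Without length correction Sf3b1 was 12.1 to 16.3 times Sf3a2 in single libraries. Of the 9 SF3 genes, 5 differed between libraries, close to the 51.8% of all genes tested. Sf3b1 and Sf3b6 were highest in replicate 1 (adjusted p = 3.71e-05 and 8.88e-06), Sf3b3 and Sf3a3 highest in replicate 2 (0.000209 and 0.00885), and Sf3b4 lowest in replicate 1 (0.0227, all exact binomial tests). None of these 5 had a ratio of 1.5 or more, while 25.4% of all genes tested differed by that much. Sf3b1 and Sf3b6 no longer differed without replicate 1 (exact binomial test, adjusted p = 0.108 and 0.550), Sf3b3 without replicate 2 (0.416), Sf3a3 without replicate 1 or 2 (0.120 and 0.202), and Sf3b4 without replicate 1 or 2 (0.310 and 0.135) or on library totals (0.109). Sf3b2, Sf3b5, Sf3a1 and Sf3a2 did not pass the test (exact binomial test, adjusted p = 0.0911, 0.155, 1 and 0.437), although Sf3b2 did on library totals (2.59e-07). As a sum the 9 genes had the smallest CV of the 5 groups, 2.38%, with 988, 961 and 943 CPM.

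**Figure D3:**
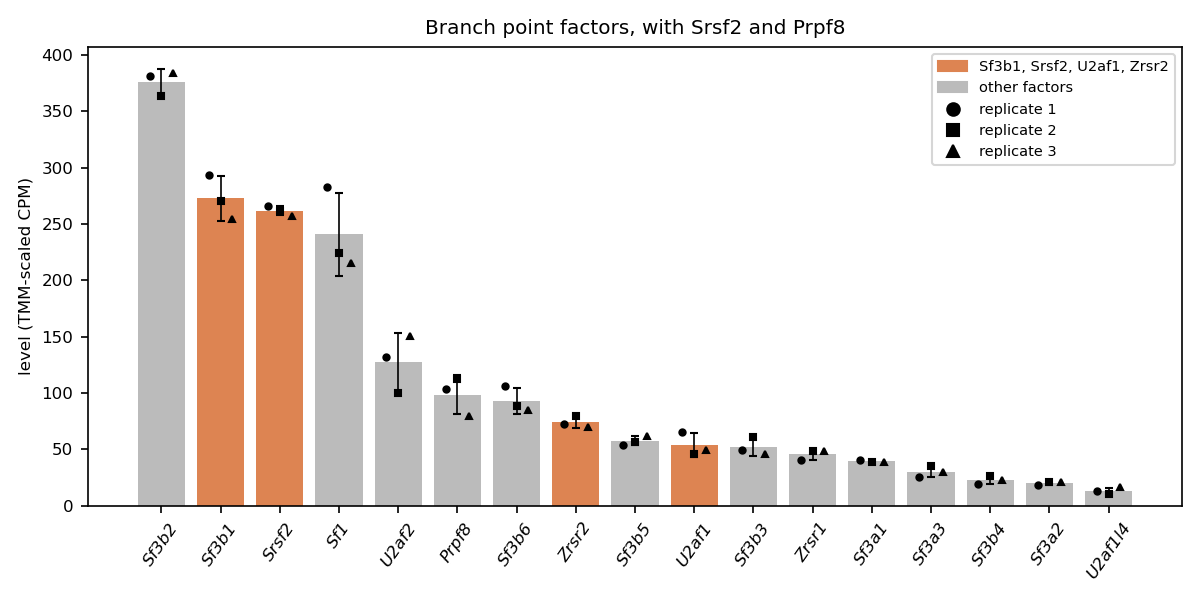
Level of the SF3, U2AF and ZRSR genes with Sf1, Srsf2 and Prpf8 in TMM-scaled CPM; bars are means, error bars SD over 3 libraries, points single libraries, and orange bars the 4 genes recurrently mutated in myelodysplasia. Sf3b2 is highest at 376 CPM, and U2af1l4 lowest at 13.3 CPM.

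Prpf8, which encodes the U5 protein at the catalytic centre of the spliceosome, had 103, 113 and 79.2 CPM, a mean of 98.4 ± 17.2 CPM (SD, n = 3). It was lowest in replicate 3 (adjusted p = 1.36e-10, exact binomial test). Without replicate 3, the remaining libraries did not differ (exact binomial test, adjusted p = 0.168). The mean of Prpf8 was 0.361 times that of Sf3b1.

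The SR genes were led by Srsf11, Srsf2, Srsf3, Srsf5 and Srsf1, and per kb of exon by Srsf2, Srsf9, Srsf5 and Srsf11. Srsf11, an SR-related protein, had 315, 343 and 355 CPM, a mean of 337 ± 20.6 CPM (SD, n = 3), and was lowest in replicate 1 (adjusted p = 5.05e-05, exact binomial test). That call was absent on library totals, where the levels were 336, 336 and 339 CPM (exact binomial test, adjusted p = 1), and without replicate 1 (0.335). Srsf3, the smallest SR protein and a link to mRNA export, had 240.4, 196 and 188 CPM and was highest in replicate 1 (adjusted p = 1.31e-14, exact binomial test). Without that library, the remaining libraries did not differ (exact binomial test, adjusted p = 0.409). Srsf1, the founding member of the family, had 142, 125 and 105 CPM and was lowest in replicate 3 (adjusted p = 3.38e-09, exact binomial test). It also differed without each library in turn, where the run without replicate 3 compares the remaining libraries only.

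Srsf5 and Srsf2 were nearly level across libraries. Srsf5 had 186, 184 and 183 CPM, with a CV of 0.828%, the smallest of the splicing genes, and Srsf2 a CV of 1.64% (adjusted p = 1 for both, exact binomial test). On library totals both were called, highest in replicate 1 (exact binomial test, adjusted p = 0.00136 for Srsf5 and 1.18e-05 for Srsf2), so their evenness holds after scaling only. Srsf2 overlaps Mettl23 and Mfsd11, which held 623 reads together against 6933 for Srsf2. The other SR genes ran from Srsf7 at 113 CPM, Srsf9 at 105 CPM, Srsf6 at 65.2 CPM and Srsf10 at 64.8 CPM down to Srsf4, at 27.1, 26.0 and 20.4 CPM. Of these, Srsf7 was highest in replicate 1, Srsf6 highest in replicate 3, and Srsf10 and Srsf4 lowest in replicate 3 (adjusted p = 0.0354, 0.0272, 0.0246 and 0.0164, exact binomial test), while Srsf9 did not pass (0.527) except on library totals (0.00483). Srsf7 lost its call without replicate 1 or 2 (exact binomial test, adjusted p = 0.299 and 0.190), Srsf6 without replicate 2 or 3 (0.156 and 0.211) or with library sizes that leave out the 20 most abundant genes (0.0566), Srsf10 without replicate 1 or 3 (0.0983 and 0.553), and Srsf4 without replicate 1 or 3 (0.0535 and 0.791). An antisense entry, Gm12992, overlaps Srsf4 and held 687 reads against 650.

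Srsf12 was close to undetected, with 0, 0 and 4 reads. A count of 0 allowed up to 0.306 CPM in replicate 1 and 0.377 CPM in replicate 2, and the 4 reads of replicate 3 gave 0.459 CPM. It had too few reads for the test. In all, 7 of 10 tested SR genes differed, against 51.8% of all genes tested and 69.1% of those with at least 1000 reads. None differed by 1.5 times or more, against 25.4% and 7.31%.

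Tra2a and Tra2b, which encode SR-like proteins that bind purine-rich exonic enhancers, stood close to each other. Tra2a had 108, 88.0 and 80.0 CPM, or 92.0 ± 14.3 CPM (SD, n = 3), and Tra2b 109, 105 and 99.0 CPM, or 104 ± 5.13 CPM. Their libraries overlapped. Tra2a was highest in replicate 1 (adjusted p = 3.52e-08, exact binomial test), but not called without that library (0.163). Tra2b did not pass the test (exact binomial test, adjusted p = 0.226), except on library totals (0.000186).

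Hnrnpk, which encodes a KH-domain protein that binds cytosine-rich RNA, was the most abundant splicing gene in CPM and ranked 152 among all entries. It had 460, 472 and 500.2 CPM, a mean of 477 ± 20.6 CPM (SD, n = 3), and was highest in replicate 3 (adjusted p = 0.00133, exact binomial test). The call was absent on library totals (0.0851) and without replicate 3 (0.492). Hnrnpm had 372, 338 and 311 CPM and Hnrnpu, a nuclear scaffold protein, 355, 347 and 293 CPM. Exons of Hnrnpm overlap those of March2 on the same strand, which held 3286 reads against 9040. Exons of Hnrnpu overlap those of Cox20 on the other strand, which held 2479 reads against 8797. Hnrnpm was highest in replicate 1 and Hnrnpu lowest in replicate 3 (adjusted p = 8.48e-09 and 4.72e-13, exact binomial test). Hnrnpu did not differ between the remaining libraries without replicate 3 (exact binomial test, adjusted p = 0.452). Hnrnpab was level at 288, 279 and 283 CPM, with a CV of 1.65% (adjusted p = 0.985, exact binomial test), although it was called on library totals (4.20e-06). Hnrnpc, which binds uridine tracts, had 290.2, 278 and 265 CPM and was lowest in replicate 3 (adjusted p = 0.0238, exact binomial test). It did not differ without replicate 1 or 3 (exact binomial test, adjusted p = 0.196 and 0.209).

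The hnRNP genes with the largest spread were lowest in replicate 3. Hnrnpul1 had 83, 56 and 28 reads, or 8.48, 7.04 and 3.21 CPM, a 2.64-fold range and a CV of 43.6% (adjusted p = 5.79e-05, exact binomial test). Hnrnpa3 had 70.1, 68.3 and 42.0 CPM, a 1.67-fold range (adjusted p = 2.76e-16, exact binomial test). Hnrnph3 had 36.1, 32.6 and 24.2 CPM, a 1.49-fold range (adjusted p = 9.66e-05, exact binomial test). In all 3 genes replicates 1 and 2 lay close together, and without replicate 3 none of them differed (exact binomial test, adjusted p = 0.456, 0.749 and 0.343). Reads of Hnrnpa3 are uncertain, because the last 400 bases of its transcripts matched 18 other annotated genes over at least 100 bases at 97% identity or more, most of them processed pseudogenes. Hnrnph3 overlaps Rufy2 on the other strand, which held 1364 reads against 823.

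Hnrnpa1 was the second lowest hnRNP gene in CPM (per kb of exon Hnrnpr, Hnrnpll and Hnrnpul1 were lower), with 112, 100 and 98 reads, or 11.4, 12.6 and 11.2 CPM (mean 11.8 ± 0.724 CPM, SD, n = 3). It encodes one of the best known splicing silencers. Its exact 95% interval in replicate 1 ran from 9.42 to 13.8 CPM, which covers counting error only. In CPM Hnrnpa2b1 was 6.81 to 9.22 times and Hnrnpk 37.5 to 44.5 times as high. The libraries are meant to give reads from transcript ends, which was not tested. Whether the annotation that the authors counted on holds the main end of Hnrnpa1 was not tested either. The Hnrnpa1 value may therefore not be the level of the whole gene. Hnrnpa1 did not differ between libraries (adjusted p = 1, exact binomial test). No other annotated transcript matched its last 400 bases at the identity used above. Of the 20 hnRNP genes, 16 differed between libraries, against 51.8% of all genes tested and 69.1% of those with at least 1000 reads. By 1.5 times or more 2 differed, against 25.4% and 7.31%. Besides Hnrnpab and Hnrnpa1, Hnrnpdl and Hnrnpr did not pass the test (exact binomial test, adjusted p = 0.201 and 0.0799), except on library totals (0.000192 and 0.0128), and Hnrnpdl also with library sizes that leave out the 20 most abundant genes.

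As families, hnRNP transcripts stood at 2.10 times the SR transcripts. The log2 ratio of summed SR to summed hnRNP levels was -1.08, -1.08 and -1.04 in replicates 1, 2 and 3, a mean of -1.07 ± 0.02 (SD, n = 3). All 3 libraries had the same sign. An exact permutation test that flips signs (two-sided) gave p = 0.25, below which 3 libraries cannot go. Since the family sizes are 20 and 11 genes, the sums compare totals and not typical members, whose median levels were 111 CPM for hnRNP and 113 CPM for SR genes.

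Within 12 groups of related genes the leading member was the same in all 3 libraries. Hnrnpa0, an intronless A/B-type gene, held 61.2%, 61.8% and 61.4% of the reads of Hnrnpa0, Hnrnpa1, Hnrnpa2b1 and Hnrnpa3 in replicates 1, 2 and 3, and Hnrnpa1 held 2.37%, 2.88% and 2.96%. Hnrnpab held 41.7%, 41.8% and 41.8% of its group with Hnrnpd and Hnrnpdl. These shares moved by less than 1 percentage point between libraries. The level of Hnrnpa0 itself was not even, at 295, 270 and 233 CPM in replicates 1, 2 and 3. It was lowest in replicate 3 (adjusted p = 2.51e-12, exact binomial test), and it also differed without each library in turn. The run without replicate 3 compares the remaining libraries only. Hnrnpu held 72.8% ± 2.47 (SD, n = 3) of its group with Hnrnpul1 and Hnrnpul2, and Srsf5 67.0%, 68.4% and 66.5% of its group with Srsf4 and Srsf6. U2af1 held 80.0% ± 4.26 against U2af1l4, Zrsr2 61.9% ± 2.52 against Zrsr1, and Srsf10 99.7% ± 0.449 against Srsf12.

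Other pairs were nearer to balance or moved more. Hnrnpl, a binder of CA repeats, held 73.0%, 62.6% and 76.1% of its pair with Hnrnpll, a regulator of alternative splicing in lymphocytes. Replicate 2 stood apart there, and its exact 95% interval of 58.8% to 66.4% did not overlap those of the other libraries (69.9% to 76.0% and 72.9% to 79.0%). Hnrnpl was lowest in replicate 2 and Hnrnpll highest there (adjusted p = 0.000132 and 0.00246, exact binomial test), and neither differed without it (0.306 and 0.559). Like Hnrnpll, the B cell (609 CPM against 566 and 507), stem and progenitor (345 against 333 and 284) and proliferation markers (2539 against 2208 and 2241) were highest in replicate 2. The T cell markers, at 7.46, 11.7 and 17.3 CPM in replicates 1, 2 and 3, were highest in replicate 3, where Hnrnpll was lowest. The part of these cells in the Hnrnpll value was not tested. Hnrnph1 held 48.0%, 41.9% and 48.3% of its group with Hnrnpf, Hnrnph3 and Hnrnph2, again lowest in replicate 2. Srsf1 held 57.0%, 53.9% and 50.9% against Srsf9, Srsf3 held 66.6%, 65.1% and 62.6% against Srsf7, and Tra2b held 50.3%, 54.3% and 55.3% against Tra2a. Per kb of exon, Srsf9, Srsf7, Tra2a and Hnrnpf led their groups instead.

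**Figure D4:**
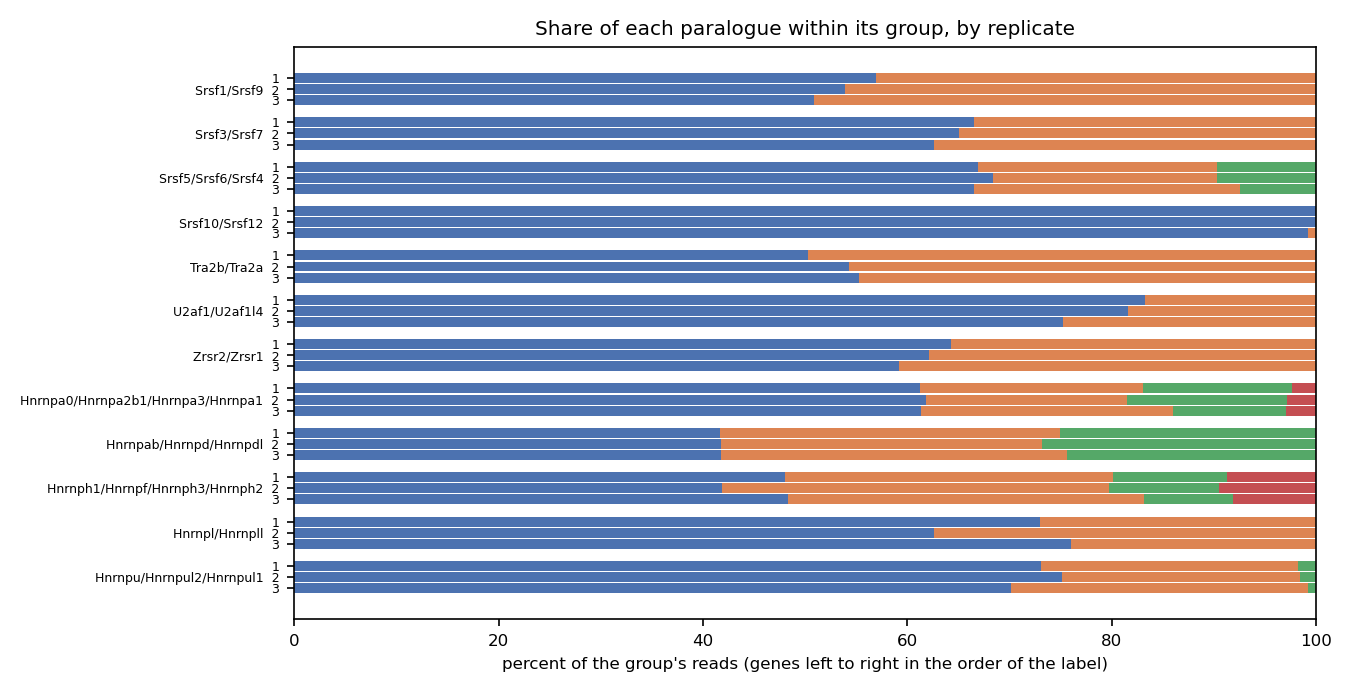
Share of reads (percent) of each gene within its group of relatives, 1 bar per replicate (1, 2 and 3 from top to bottom), with genes coloured from left to right in the order of the label. Hnrnpl falls to 62.6% in replicate 2, while Hnrnpab stays between 41.7% and 41.8%.

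Across the 48 tested genes the directions leaned to 1 pair of libraries. Replicate 3 was the lowest library for 29 of 48 genes, against 32.4% of all genes tested, and replicate 1 the highest for 26, against 32.6%. Replicate 2 was the highest for 12 (33.7% of all genes) and the lowest for 12 (34.4%), replicate 3 the highest for 10 (33.7%) and replicate 1 the lowest for 7 (33.2%). Among genes that differed, replicate 3 was low in 11 of 48 (7.67% of all genes tested) and replicate 1 high in 10 (8.33%). Replicate 1 was low in 3 (8.50%), replicate 2 high in 4 (9.38%) and low in 4 (8.71%), and replicate 3 high in 3 (9.19%). The test calls more genes at higher depth, and the median was 2564.5 reads in the splicing genes against 444 in all genes tested. Shares of called genes by direction at matched depth were not computed. Lowest in replicate 3 were 13 of 20 hnRNP genes, 7 of 10 SR genes and all 4 of Sf1, Prpf8, Tra2a and Tra2b. SF3 genes were split, with 4 lowest in replicate 1, 1 in replicate 2 and 4 in replicate 3. In the U2AF and ZRSR group 3 of 5 were lowest in replicate 2. The count lowest in replicate 3 was 29 to 30 under the 4 other scalings, and 30 on library totals, where 42.4% of all genes were lowest there. Stroma (4 markers), megakaryocyte (3) and stem and progenitor markers (5), all with reads, were also lowest in replicate 3, at 189, 264 and 284 CPM against highs of 260, 337 and 345 CPM, as were the 6 B cell markers at 507 CPM against 609. Erythroid, neutrophil, monocyte (5 markers, 1238 to 1521 CPM) and T cell markers went the opposite way and were highest in replicate 3. Their part in the splicing gene values was not tested.

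**Figure D5:**
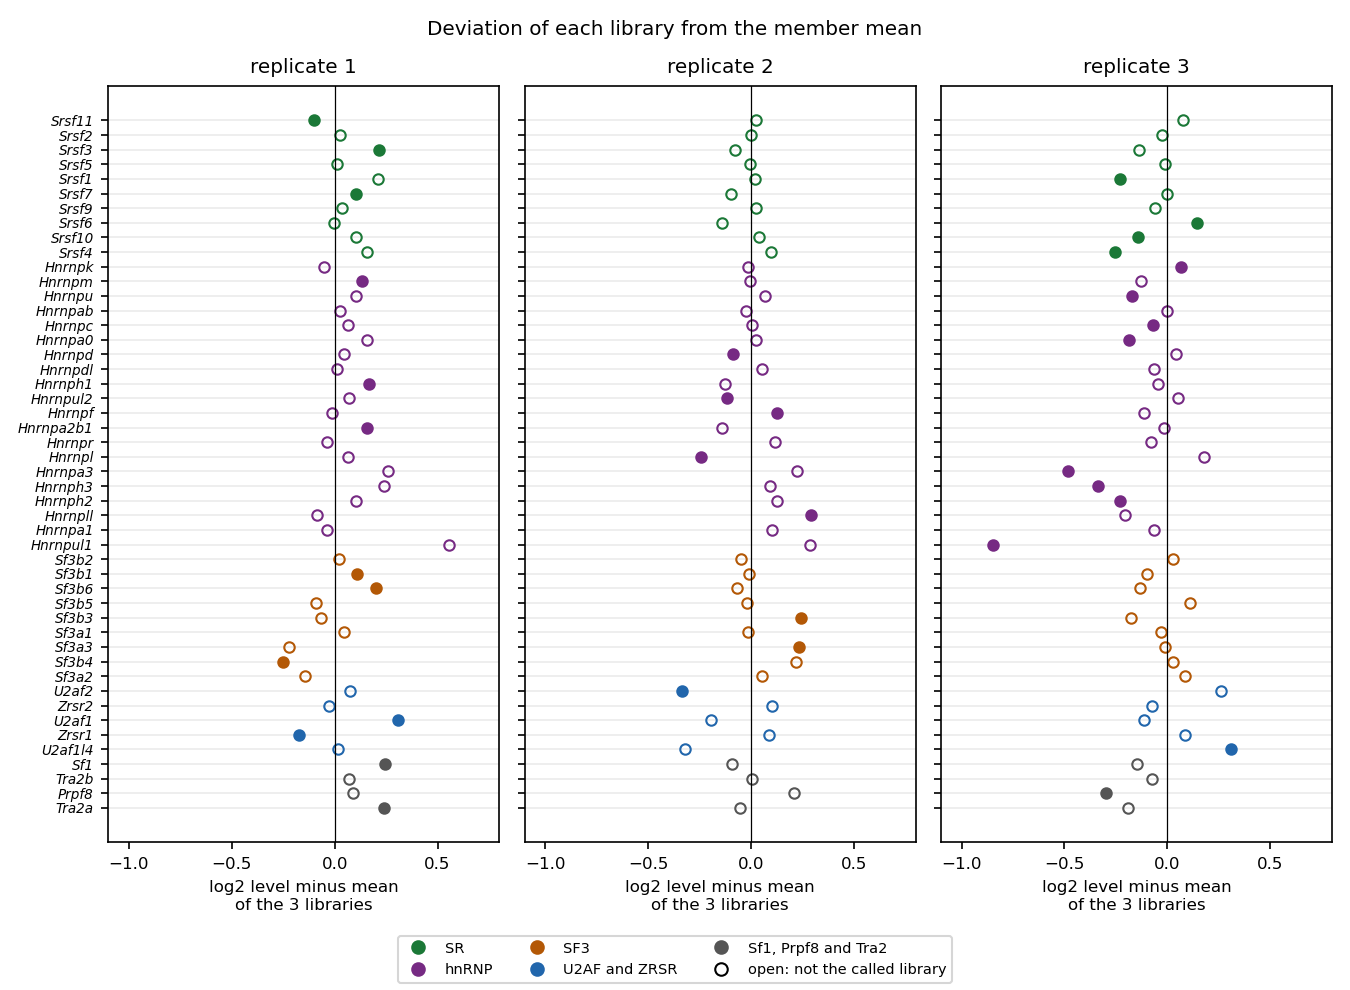
log2 level of each of the 48 tested genes minus its mean over the 3 libraries, 1 panel per replicate; filled points mark the library by which a gene that differed (adjusted p under 0.05, exact binomial test) stood out most. Filled points low in replicate 3 (11 genes) and high in replicate 1 (10 genes) are the most frequent.

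In 7 other lists of splicing pathway genes, the share that differed ran from 40% to 78.9%, on both sides of the 51.8% of all genes tested. Of 10 SR kinases and import factors, which phosphorylate SR proteins and carry them into the nucleus, 4 differed, with 2 low and 1 high in replicate 3 and 1 high in replicate 2. Of 16 tested SR-related proteins 10 differed (4 low in replicate 1, 3 low in replicate 3, and 1 high in each of replicates 1, 2 and 3). Of 15 U2-associated partners 10 differed, of which 4 were high in replicate 3, 3 high in replicate 1, 2 high in replicate 2 and 1 low in replicate 2. Of 10 U5 and tri-snRNP partners 5 differed, 3 of them low in replicate 1 and 1 each high in replicates 1 and 2. Sm and U1 proteins gave 7 of 10, with 3 low and 2 high in replicate 3 and 1 each low and high in replicate 2. Other splicing regulators gave 15 of 19 (5 high in replicate 2, 3 high and 2 low in replicate 3, 3 low and 1 high in replicate 1, 1 low in replicate 2). Genes of nonsense-mediated decay gave 6 of 10, with 2 high in replicate 2, 2 high in replicate 3, and 1 each low in replicates 2 and 3. Replicate 3, the lowest library for 32.4% of all genes tested, was lowest for 9 of 16 SR-related proteins, 8 of 19 other regulators, 4 of 10 SR kinases and import factors, 4 of 10 genes of nonsense-mediated decay, 4 of 15 U2-associated partners, 3 of 10 Sm and U1 proteins, and 2 of 10 U5 and tri-snRNP partners. These differences between lists were not tested. Median levels per list ran from 37.7 CPM for U5 and tri-snRNP partners to 134 CPM for the other regulators.

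Many SR genes hold alternative exons that lead to nonsense-mediated decay, by which their proteins are known to limit their own mRNA. GENCODE (release for GRCm38, the assembly called mm10) lists at least 1 transcript of that class for 26 of the 49 genes (53.1%), against 29.6% of 10902 protein-coding genes with at least 30 reads. By group these were 9 of 11 SR genes, 10 of 20 hnRNP genes, 1 of 9 SF3 genes, 3 of 5 U2AF and ZRSR genes, and 3 of the 4 others. U2af1l4 had 8 such transcripts and Hnrnpd 4, while Sf3b1 had 1. Reads here are counted per gene, so the share of such transcripts was not measured. Annotated exons of 11 of the 49 genes overlap another entry, and 4 genes (Hnrnpa3, Hnrnph1, Hnrnph2 and U2af1) had at least 1 near-identical annotated copy of a transcript end, so their levels are less certain than those of the rest.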

How the data were processed

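Libraries were made with a Lexogen QuantSeq kit from 500 ng of Trizol-extracted RNA, per the labels' protocols. Bowtie2, bedtools and mm10 are named in the submitters' processing notes, while for versions, gene annotation, strand setting and normalization the entry is "not given in the sources used here". The deposited values, 1 per gene and library, were read as log2(x + 1). Raising 2 to the value and subtracting 1 gave whole multiples of 1 read for 100% of values (tolerance 1e-06), so reads per gene were recovered. Their totals were scaled by TMM (30% of ratios and 5% of intensities trimmed, written in Python 3.11.15 with numpy 2.4.6 and scipy 1.17.1), since library totals shifted the median gene between libraries. Intervals are exact Clopper-Pearson at 95% and, like the limits for 0 reads (3 counts), cover counting error only. The smallest of the 3 binomial p-values per gene was multiplied by 3. Where a library was left out, the remaining libraries were compared once, with no such multiplication. The p-values set the spread between libraries against counting noise only and do not compare conditions. The test was also run on simulated counts that held counting noise and planted changes only. Those runs cannot show how it behaves where libraries vary beyond counting noise.

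Members and lists were chosen with earlier results of these data known. Values per library are given for all SF3, U2AF, ZRSR, Sf1, Prpf8 and Tra2 genes, the 5 highest and the lowest tested SR and hnRNP genes, Srsf2, and the 5 largest and 3 smallest CVs among members with at least 100 reads. Hnrnpa1, Srsf12, Hnrnpl, Hnrnpll and the single values of other members were added after the values were seen. Gene positions, exon lengths and transcript classes are from GENCODE, and transcript ends were compared with BLAST 2.17.0. Protein sequences were not used here.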

Additional observations from a re-analysis of the deposited data

How the results depend on the processing

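No paired analysis was possible because there is 1 group. The 35 splicing genes that differed numbered 34 to 40 under the other scalings, read minimums and the chi-square test, and 29 of the 35 were called under each of them. Over all genes the share was 51.8% to 56.5% under these scalings. Those that differed by 1.5 times or more numbered 7 on library totals. For this stricter rule the share over all genes was computed with TMM scaling and all libraries only (25.4%). On the authors' denominators the summed levels were 6112 CPM for all genes, 1416 for SR, 2971 for hnRNP and 917 for SF3, a common shift of scale. Leaving out each replicate in turn gave 19 to 24 genes that differed, of which 4 of 35 were called each time, and 0 to 4 that differed by 1.5 times or more. The share over all genes tested fell as well, from 51.8% to 34.4%, 32.8% and 34.4% without replicates 1, 2 and 3. With fewer libraries fewer reads are tested. The summed levels were then 6076 to 6697 CPM for all genes, 1416 to 1542 for SR, 2955 to 3266 for hnRNP and 921 to 997 for SF3, and the median CV 6.54% to 9.49%.

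Per kb of exon, the fold range was 1.69 in SF3A, 11.6 in SF3B and 8.62 among Sf3b1, Srsf2, U2af1 and Zrsr2. The shares became 25.4% for Srsf1, 45.2% for Srsf3, 69.4% for Srsf5, 46.2% for Tra2b, 71.95% for U2af1, 50.3% for Zrsr2, 77.2% for Hnrnpa0, 60.6% for Hnrnpab, 32.1% for Hnrnph1, 82.3% for Hnrnpl and 62.3% for Hnrnpu, each within its group of relatives. The SR to hnRNP ratio kept its sign. Depth limits Srsf12, Hnrnpul1 and Hnrnpa1 most.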
